A study of Mus musculus with 48 samples.

Results

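The 9 genes described here make, store, take up and break down serotonin, and they were examined in the DNA methylation profile of the mouse amygdala. A locus, which is 1 merged peak of captured methylated DNA, was taken as a member when it overlapped the body of 1 of these genes or the 5 kb on either side of it in the GRCm38 mouse assembly. This gave 75 of the 187695 loci, of which Slc22a3 held 19, Tph2 15, Ddc 13, Slc6a4 11, Tph1 8, Slc18a2 5, Fev 3 and Maoa 1. Maob held 0 loci.

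Serotonin is made from tryptophan in a hydroxylation that limits the rate of synthesis and a decarboxylation that follows it. TPH2, the product of Tph2, carries out the first step in the neurons of the raphe nuclei, and TPH1 carries it out mainly outside the brain, while the aromatic amino acid decarboxylase encoded by Ddc carries out the second step and also makes dopamine. VMAT2 (Slc18a2) loads serotonin into vesicles, the serotonin transporter (Slc6a4) returns it to the terminal, OCT3 (Slc22a3) is a transporter of low affinity and high capacity, and the monoamine oxidases Maoa and Maob degrade it. Fev encodes PET1, a transcription factor of serotonin neurons. The amygdala receives serotonin fibres from the raphe but is not known as a site of serotonin cell bodies, so these genes are assayed here in DNA of their target tissue.

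The DNA was amygdala DNA of C57BL/6 males at 4 months of age (a line backcrossed to C57BL/6N, per the study's methods), with 6 groups of 8 mice. The groups were Tph2+/+, Tph2+/- and Tph2-/- offspring of Tph2+/- parents, each either raised as controls (C) or taken from the mother daily for 3 h between postnatal days 2 and 15 (maternal separation, MS), and the males of both kinds of litter went through a behavioral screen before the tissue was taken. Which bases of Tph2 the mutant allele lacks is not given in the sources used here, and the litter of each mouse is not given in the labels. Both amygdalae of a mouse were blended, so a methylated share of cells and a level of methylation within each cell cannot be told apart, and because the readout is captured DNA, the labelled tissue was not checked against marker transcripts. Counts per library totalled 7.72 to 14.1 Mcounts over all loci, with 926 to 2926 counts (median 2311) at the member loci. The 2 Tph2-/- MS libraries with the fewest counts were left out below unless another choice of libraries is named, which leaves 46 libraries. Control libraries carry the numbers S1 to S17 and S42 to S48 in the labels and MS libraries S18 to S41. MS therefore cannot be told apart from anything else that the block S18 to S41 shared.

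MBD capture pulls down fragments that carry methylated CpG, so the CpG content of a region bears on whether it can appear in the table at all. The RefSeq promoters of GRCm38.p6, 250 bases before the start and 50 after it, differed widely among the member genes. The dinucleotide CG was counted in each, which reads the same on both strands. The promoter of Slc6a4 held 28 CpG and that of Fev 25, and 14.2% and 18.4% of the 32851 promoters of the same length held at least as many. Maoa held 14, Slc18a2 12, Tph2 9, Tph1 5, Slc22a3 5 and Ddc 2, against a median of 7 over all promoters (quartiles 3 and 20). These values are for the promoter at or nearest the annotated start of each gene. Tph1 and Ddc each had another RefSeq promoter, 5160 and 7736 bp from that start, with 19 and 5 CpG. The 250 bases before the start are printed for the gene with the most, the gene with the fewest and the mutated gene, 5′ to 3′ on the strand of the gene with each CpG in capitals, at chr11:76998347-76998596 (plus strand), chr11:11898145-11898394 (minus strand) and chr10:115185023-115185272 (minus strand).
Slc6a4 promoter: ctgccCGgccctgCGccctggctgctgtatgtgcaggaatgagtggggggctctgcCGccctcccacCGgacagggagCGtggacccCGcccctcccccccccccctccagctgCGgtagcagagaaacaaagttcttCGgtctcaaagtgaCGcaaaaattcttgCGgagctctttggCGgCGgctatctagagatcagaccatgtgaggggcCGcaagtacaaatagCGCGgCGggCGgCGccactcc
Ddc promoter: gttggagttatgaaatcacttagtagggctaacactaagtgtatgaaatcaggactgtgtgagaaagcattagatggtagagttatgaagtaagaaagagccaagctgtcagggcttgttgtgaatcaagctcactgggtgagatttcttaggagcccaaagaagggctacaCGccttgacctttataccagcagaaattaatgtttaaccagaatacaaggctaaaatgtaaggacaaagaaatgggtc
Tph2 promoter: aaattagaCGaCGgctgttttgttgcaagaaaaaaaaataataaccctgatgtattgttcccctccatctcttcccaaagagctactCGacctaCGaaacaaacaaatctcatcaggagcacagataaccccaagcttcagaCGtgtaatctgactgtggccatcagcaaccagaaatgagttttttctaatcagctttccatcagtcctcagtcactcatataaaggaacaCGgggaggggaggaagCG

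No locus covered the start of any member gene, whether its promoter was rich or poor in CpG. A locus came within 1 kb of the annotated start in 2 of the 9 genes, ending 479 bp before the start of Tph1 and 344 bp before that of Slc18a2. Of the 20807 autosomal protein-coding genes, 6.45% had a locus over the start and 16.9% had one within 1 kb of it. The nearest locus of Tph2 began 1963 bp into the gene, that of Slc6a4 3808 bp and that of Ddc 6187 bp into it, while those of Slc22a3 and Fev lay 1708 and 3341 bp before the start. The other RefSeq starts of Tph1 and Ddc, at chr7:46667377 and chr11:11890408, were not used for these distances. A start without a locus is a start where no peak was called, which is not a measurement of the methylation of each of its CpG.

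The loci that the comparisons below turn on lay far from the starts, in introns and in an exon of 3 genes. For each, the 200 bases with the most CpG are printed on the plus strand, CpG in capitals: intron 5 of Slc22a3 at chr17:12451833-12452032, exon 8 of Ddc with the intron beside it at chr11:11839348-11839547, intron 8 of Ddc at chr11:11836806-11837005 and intron 14 of Slc6a4 at chr11:77028920-77029119. They held 5, 5, 10 and 7 CpG in this order. The upstream locus of Tph1, the only one within 1 kb of the annotated start of a synthesis gene, held 11 CpG in the 200 bases at chr7:46673597-46673796. It is shown beside them.
Slc22a3 intron 5: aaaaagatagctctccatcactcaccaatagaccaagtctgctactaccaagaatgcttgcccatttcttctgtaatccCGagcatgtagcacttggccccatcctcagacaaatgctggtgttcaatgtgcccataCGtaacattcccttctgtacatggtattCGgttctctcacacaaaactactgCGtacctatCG
Ddc exon 8: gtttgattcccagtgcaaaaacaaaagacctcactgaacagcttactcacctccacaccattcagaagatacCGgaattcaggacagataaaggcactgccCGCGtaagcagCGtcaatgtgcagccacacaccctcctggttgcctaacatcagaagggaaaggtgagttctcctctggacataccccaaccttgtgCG
Ddc intron 8: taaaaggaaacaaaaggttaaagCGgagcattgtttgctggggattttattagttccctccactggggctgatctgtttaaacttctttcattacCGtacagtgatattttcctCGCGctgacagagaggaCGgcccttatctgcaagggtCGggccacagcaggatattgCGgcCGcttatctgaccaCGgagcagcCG
Slc6a4 intron 14: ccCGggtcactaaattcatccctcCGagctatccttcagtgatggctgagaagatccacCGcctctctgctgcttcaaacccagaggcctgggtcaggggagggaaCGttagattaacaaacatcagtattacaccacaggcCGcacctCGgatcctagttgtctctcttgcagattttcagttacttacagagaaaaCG
Tph1 upstream: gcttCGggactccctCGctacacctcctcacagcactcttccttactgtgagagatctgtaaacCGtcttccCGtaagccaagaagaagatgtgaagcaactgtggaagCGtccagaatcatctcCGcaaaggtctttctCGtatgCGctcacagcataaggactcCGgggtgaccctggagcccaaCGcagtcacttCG

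As a set, the member loci looked much like the rest of the table. Their median width was 907 bp against 916 bp over all loci, they held a median of 16 CpG in both cases, and the CpG density was 1.62 against 1.82 per 100 bp. Repeats took a median of 18.1% of a member locus and 23.2% of any locus. Levels are given as CPM, the counts of a locus per Mcount of the normalized total of its library. Per kb of locus, the median level was 2.72 CPM in members and 2.76 in all loci, the median count was 27.2 and 26.96 per library, and the coefficient of variation between libraries was 28.3% and 29.4%. The level of a member locus went with its number of CpG (Spearman rho 0.66 over 75 loci that share the same libraries, 0.78 over all loci), as a description of the capture.

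Tph2 lies at chr10:115078641-115185022 on the minus strand (ENSMUSG00000006764.8). Its 15 loci all lay inside the gene and reached 7 of its 11 exons, namely exons 2, 3, 4, 6, 7, 10 and 11. The locus over exon 2, 1809 bp wide with 19 CpG, had the highest level of the gene at 6.08 ± 1.24 CPM (SD, n = 46), and the next, over exons 3 and 4, had 5.76 ± 1.11 CPM, while the lowest locus had 1.23. Per kb, the locus over exons 3 and 4 stood at the 91.1 percentile of all loci, the highest of the 75 members, and a locus in intron 5 at the 4.58 percentile. The first 2 loci of Tph2 thus carried the highest levels of the gene, as the plot of loci along the genes shows.

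**Figure D1:**
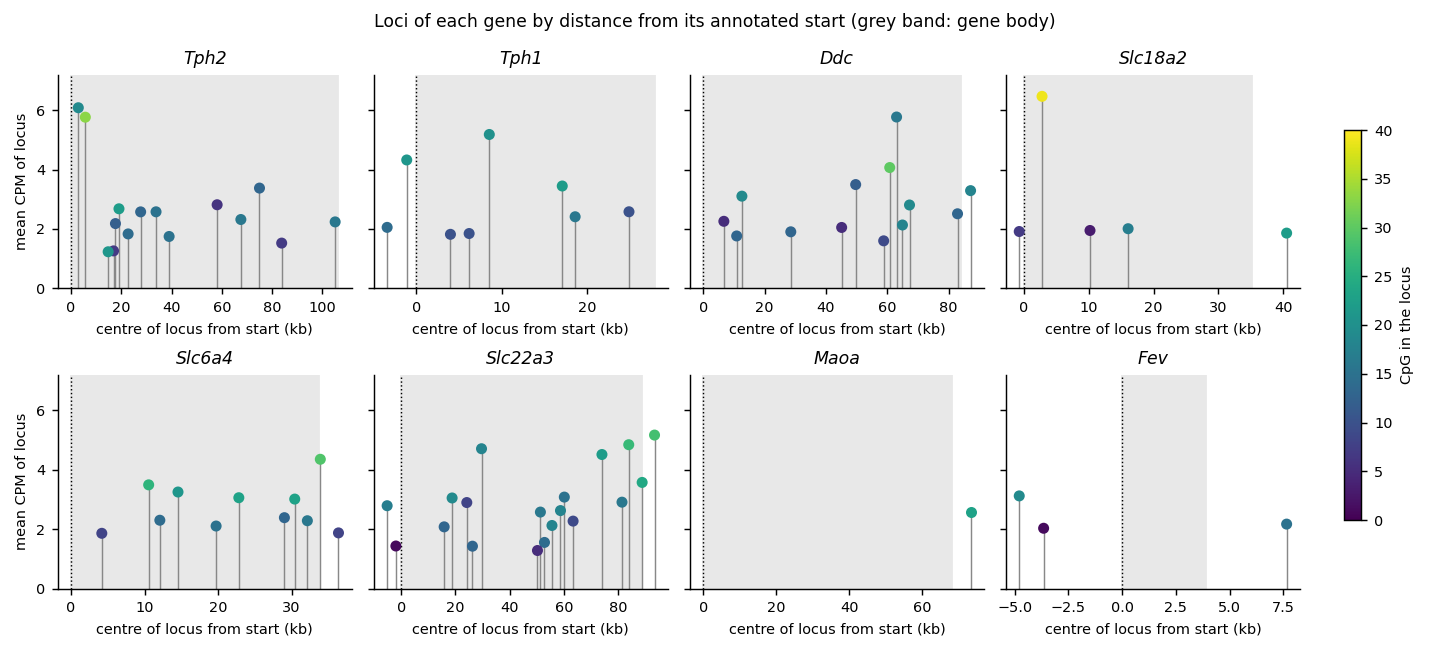
Mean level of each member locus in CPM over 46 libraries (vertical axis) against the distance of its centre from the annotated start of the gene in kb (horizontal axis), with the gene body as a grey band, the start as a dotted line and the number of CpG in the locus as color. Tph2 holds its highest loci just after the start, Fev and Maoa hold loci in their flanks alone, and Maob, which has none, is not drawn.

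Of the loci of the other synthesis genes, 4 of 8 in Tph1 and 9 of 13 in Ddc lay in introns. Tph1 (chr7:46644641-46672537, minus strand) held 6 loci inside the gene and 2 upstream, and its highest, in intron 2, had 5.18 ± 1.07 CPM (n = 46) against 4.32 ± 0.847 for the upstream locus nearest the start. Per kb the order was reversed, with 3.00 CPM in intron 2 and 3.45 in that upstream locus. Ddc (chr11:11814101-11898144, minus strand) held 12 inside and 1 downstream, with 5.77 ± 1.04 CPM over exon 9 as the highest and 1.60 ± 0.673 over exon 8 as the lowest. The exon 9 locus was also the widest of Ddc at 1883 bp and the exon 8 locus the narrowest at 634 bp. Per kb, these had 3.06 and 2.52 CPM, and the levels of Ddc ran from 2.06 in intron 1 to 3.36 in the downstream flank.

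Among the transporters, Slc18a2 (chr19:59260896-59296012, plus strand) had the member locus with the highest level of all, 6.47 ± 1.14 CPM (n = 46), at 1704 bp into the gene over exon 3. This locus was also the widest member at 2232 bp and the one with the most CpG, 39, and its level per kb was close to the middle of all loci, at the 59.5 percentile. Slc6a4 (chr11:76998603-77032340, plus strand) held 11 loci that reached 7 of 15 exons, with the highest level, 4.36 ± 0.666 CPM, at the last exon. Per kb this locus had 3.03 CPM, and the highest of Slc6a4 was 3.37, over exons 4 and 5. Slc22a3 (chr17:12418960-12507704, minus strand) held 19 loci, 16 of them inside the gene. Its highest, 5.17 ± 0.892 CPM, lay in the downstream flank and also overlapped Plg, the plasminogen gene, so it cannot be assigned to Slc22a3 alone. Per kb that locus had 2.75 CPM, and the highest of Slc22a3 was 4.04, over exons 6 and 7.

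The 2 monoamine oxidase genes were close to empty. Maoa (chrX:16619698-16687818, plus strand) and Maob (chrX:16709282-16817366, minus strand) lie tail to tail, and the only locus, chrX:16692392-16693570, sat between them in the downstream flank of Maoa, 15712 bp from Maob. Repeats made up 95.9% of its bases, and its level was 2.58 ± 0.804 CPM (n = 46). The lack of loci was shared with the chromosome: X held 17.97 loci per Mb against 60.1 to 90.9 on the autosomes, and of protein-coding genes of 50 to 200 kb, 85 of 168 (50.6%) on X and 230 of 3834 (6.00%) on autosomes had none within 5 kb. All mice were male and so carried 1 copy of X. Fev (chr1:74881509-74885419, minus strand), a short gene of 3911 bp, had no locus over its body. Of its 3 loci in the flanks, the highest, 3.12 ± 0.807 CPM, overlapped the neighbouring gene Cryba2.

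Counts were then summed over the loci of a gene, and the sum was taken per kb of locus to set the genes side by side. Tph2 came first at 2.97 CPM per kb, followed by Tph1 at 2.95, Slc6a4 and Slc22a3 at 2.79 each, Ddc at 2.71, Slc18a2 at 2.57, Fev at 2.56 and Maoa at 2.19. Relative to its mean, the gap between any neighbours in this order was smaller than the SD of either sum between libraries. That SD describes single libraries, and the order of the means was not tested. The sum of Tph2 was 40.2 ± 3.60 CPM (SD, n = 46), with single libraries between 30.7 and 46.5. Slc22a3 had 54.9 ± 3.90, Ddc 36.7 ± 3.77, Slc6a4 29.99 ± 2.104, Tph1 23.6 ± 2.48, Slc18a2 14.2 ± 1.85, Fev 7.32 ± 1.13 and Maoa 2.58 ± 0.804. Over the 28 pairs of these genes, the correlation of the sums over the 46 libraries ran from -0.36 to 0.46 with a median of 0.11. The genes most like Tph2 by Pearson's r of the log2 sums over 46 libraries, among 15963 genes with no locus in common with it and a mean summed count of at least 100, were Erich3 (r = 0.73), Trem1 (0.68) and Eya4 (0.68). These libraries share depth and capture, and r is given as a description.

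The first comparison asked whether the genotype at Tph2 went with methylation of Tph2 itself and of the genes around serotonin. In Tph2+/+ mice the summed CPM of Tph2 ran from 37.5 to 45.95 (median 39.1) for C and from 37.1 to 46.5 (median 40.9) for MS. In Tph2+/- mice it ran from 34.3 to 46.5 (median 43.3) for C and from 33.8 to 44.1 (median 39.5) for MS. In Tph2-/- mice it ran from 33.7 to 43.9 (median 39.5) for C and from 30.7 to 45.9 (median 37.95) for MS. All 6 groups overlapped, with the lowest and the highest library in MS groups. The fitted log2 fold change of Tph2-/- against Tph2+/+ was -0.06 ± 0.05 (SE; edgeR quasi-likelihood test, adjusted p = 0.967), and that of Tph2+/- against Tph2+/+ was -0.00 ± 0.05 (adjusted p = 1.0). The interval of 2 SE around the first ran from -0.15 to 0.04 on the log2 scale.

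**Figure D2:**
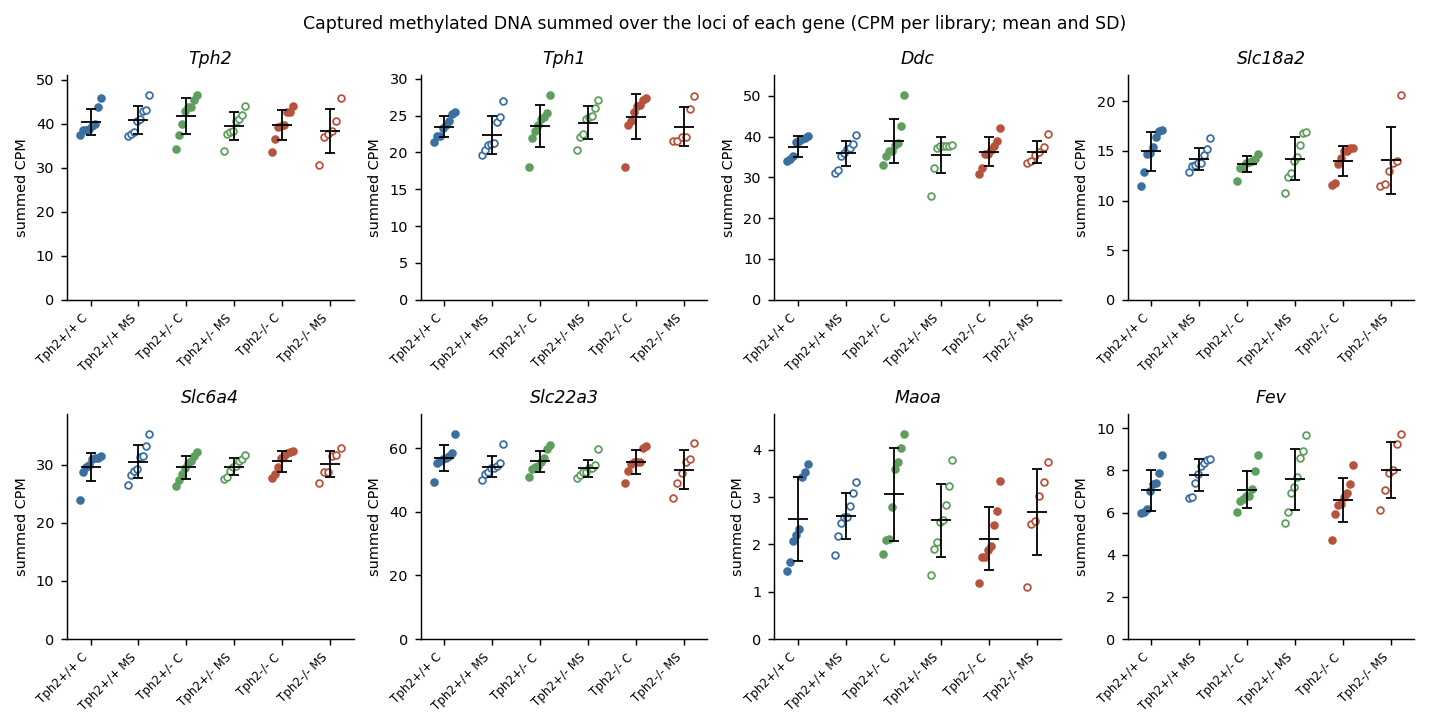
Summed CPM of the loci of each gene (vertical axis, from 0) in each of the 46 libraries by group, with filled points for C, open points for MS and bars for the mean and SD. Within each gene the points of all 6 groups overlap, as for Tph2 between 30.7 and 46.5 CPM.

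A locus or sum was called at the study's own limits, which ask for a log2 fold change beyond 0.2 and an unadjusted p under 0.01. Between Tph2-/- and Tph2+/+, 0 of 75 member loci passed them, against 0.748% of all loci, and 0 of 8 gene sums passed, against 0.603% of the 37004 genes with a locus. Within Tph2, 6 loci were higher and 9 lower in Tph2-/- by sign alone, with log2 fold changes from -0.54 to 0.28. The lowest belonged to a locus of intron 5, chr10:115167832-115168438, with a level in Tph2+/+ of 1.25 ± 0.420 CPM for C and 1.53 ± 0.636 for MS (SD, n = 8 each), and in Tph2-/- of 0.815 ± 0.213 for C (n = 8) and 1.04 ± 0.633 for MS (n = 6). The difference of -0.54 ± 0.23 (SE) missed the limits (edgeR, adjusted p = 1.0), and it rests on a mean of 13.8 counts per library. The groups overlapped, since Tph2-/- C libraries reached 1.11 CPM and Tph2+/+ C libraries went down to 0.571.

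The edge of the gene shows what the 5 kb limit cut off. The member locus nearest to that limit downstream, which lies inside the gene over exons 10 and 11 (chr10:115079572-115080358), had means for C and MS of 1.92 and 2.05 CPM in Tph2+/+, 2.52 and 2.13 in Tph2+/-, and 2.41 and 2.43 in Tph2-/-. Just outside, 5002 bp beyond the end of the gene and so 2 bp past the limit, the locus chr10:115072171-115073639 had 3.52 and 3.97 CPM in Tph2+/+, 2.34 and 3.15 in Tph2+/-, and 2.35 and 1.38 in Tph2-/-. Its Tph2-/- MS libraries ran from 0.463 to 2.46 and its Tph2+/+ MS libraries from 2.83 to 4.92, without overlap. The C libraries did overlap, from 1.71 to 2.88 in Tph2-/- and from 2.80 to 4.92 in Tph2+/+. How many loci of the whole table separate in this way was not counted. On the upstream side the nearest locus outside, 10035 bp before the start, had 2.49 and 2.26 CPM in Tph2+/+, 2.15 and 2.02 in Tph2+/-, and 1.85 and 1.75 in Tph2-/-.

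Between Tph2+/- and Tph2+/+, 1 of 75 member loci passed the limits, against 0.546% of all loci, and 0 of 8 gene sums, against 0.389% of genes. The locus lay in intron 14 of Slc6a4, the serotonin transporter, at chr11:77028509-77029544, and its densest 200 bases are printed above. In Tph2+/+ its CPM ran from 1.70 to 4.94 (median 3.63) in C and from 2.04 to 4.21 (3.12) in MS. In Tph2+/- it ran from 1.84 to 3.39 (2.90) in C and from 1.56 to 4.08 (2.20) in MS. The Tph2+/- means were the lower in both rearing conditions (3.52 and 3.03 against 2.66 and 2.39 CPM) but the libraries overlapped with Tph2+/+, with a log2 fold change of -0.37 ± 0.14 (SE; edgeR, adjusted p = 1.0), which missed the p limit with all 48 libraries (-0.37) and with the replicate block (-0.36). In Tph2-/-, which lacks both functional copies, the means were 3.20 ± 0.782 (n = 8) and 3.36 ± 0.799 (n = 6) CPM, both above the Tph2+/- means. Over all 11 loci of Slc6a4, the log2 fold changes in Tph2+/- ran from -0.37 to 0.29 and the gene sum gave -0.02 ± 0.04 (adjusted p = 1.0).

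Maternal separation over the 3 genotypes gave 0 of 75 member loci at the limits, against 3.63% of all loci, and 0 of 8 gene sums, against 3.29% of genes. At an unadjusted p under 0.05 it was 7 of 75 loci (9.33%), against 12.2% of all loci. The share at the limits depended on the libraries. Of all 187695 loci, 6816 passed with the 46 libraries and 2374 without S18 to S26, where 1 member locus passed. Over the 46 libraries, the largest difference of a gene sum was that of Fev, the factor of serotonin neurons. Its sum in Tph2+/+ mice ran from 5.99 to 8.71 CPM (median 7.18) for C and from 6.67 to 8.53 (median 8.03) for MS. In Tph2+/- mice it ran from 6.04 to 8.75 (median 6.77) for C and from 5.50 to 9.66 (median 7.46) for MS, and in Tph2-/- mice from 4.72 to 8.28 (median 6.59) for C and from 6.14 to 9.71 (median 7.97) for MS. The MS median was the higher in each genotype and the groups overlapped throughout. The log2 fold change was 0.17 ± 0.07 (SE; edgeR, adjusted p = 0.182), with 0.14 in Tph2+/+, 0.10 in Tph2+/- and 0.29 in Tph2-/-. It missed both limits, and the sum holds loci of the flanks alone. Without the MS libraries S18 to S26, it was 0.13 ± 0.08. With an offset for CpG density it was 0.21 ± 0.07, past both limits, as were 859 of the 37004 sums. The other 7 sums differed by -0.07 to 0.03 on the log2 scale.

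**Figure D3:**
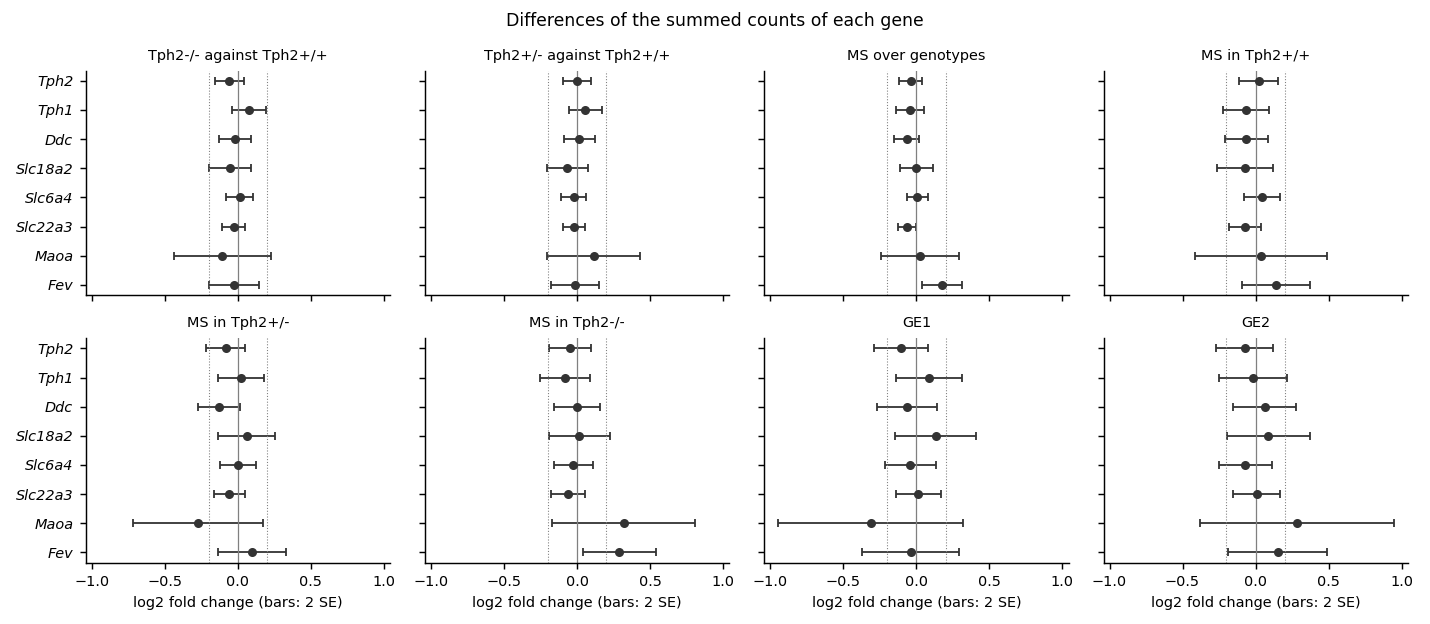
Log2 fold change of the summed counts of each gene (horizontal axis; bars show 2 SE) in the 8 comparisons, with dotted lines at the fold limit of 0.2. All intervals cover 0 except those of Fev in MS over genotypes (0.17 ± 0.07, SE) and in MS in Tph2-/- (0.29 ± 0.12, SE), and none of the sums passed the limits.

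Within Tph2+/+ mice, the comparison of MS with C gave 2 of 75 member loci at the limits, against 1.31% of all loci, and 0 of 8 gene sums, against 1.43% of genes. Both loci were lower after MS, 1 in Slc22a3 and 1 in Ddc. The Slc22a3 locus, chr17:12451519-12452628 in intron 5, is 1110 bp wide with 18 CpG, and its level per kb is among the lowest of the table, at the 1.64 percentile of all loci. In Tph2+/+ its CPM ran from 1.80 to 5.19 (median 2.63) in C and from 0.517 to 2.73 (1.41) in MS. The groups overlapped, with a mean of 2.92 ± 1.16 in C and 1.57 ± 0.887 in MS (SD, n = 8 each). The log2 fold change was -0.87 ± 0.25 (SE; edgeR, adjusted p = 0.749). The other 18 loci of Slc22a3 ran from -0.46 to 0.29 in the same comparison, and the sum of the gene gave -0.07 ± 0.05 (adjusted p = 0.773).

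The Ddc locus, chr11:11839020-11839653, holds exon 8 and parts of the introns beside it. In Tph2+/+ its CPM ran from 1.05 to 2.97 (median 2.25) in C and from 0.514 to 2.17 (1.07) in MS, again with overlap. The means were 2.08 ± 0.776 and 1.23 ± 0.587 (SD, n = 8 each), and the log2 fold change was -0.75 ± 0.28 (SE; edgeR, adjusted p = 0.756). It missed the p limit with all 48 libraries (-0.75), without S18 to S26 (-0.63) and with the offset for CpG density (-0.72). It had the smallest p of the 75 loci in MS over genotypes, where the difference of -0.41 ± 0.17 missed the limits (adjusted p = 0.302). Of the 13 loci of Ddc, 9 were lower and 4 higher after MS in Tph2+/+, and the sum gave -0.06 ± 0.07 (adjusted p = 0.846).

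**Figure D4:**
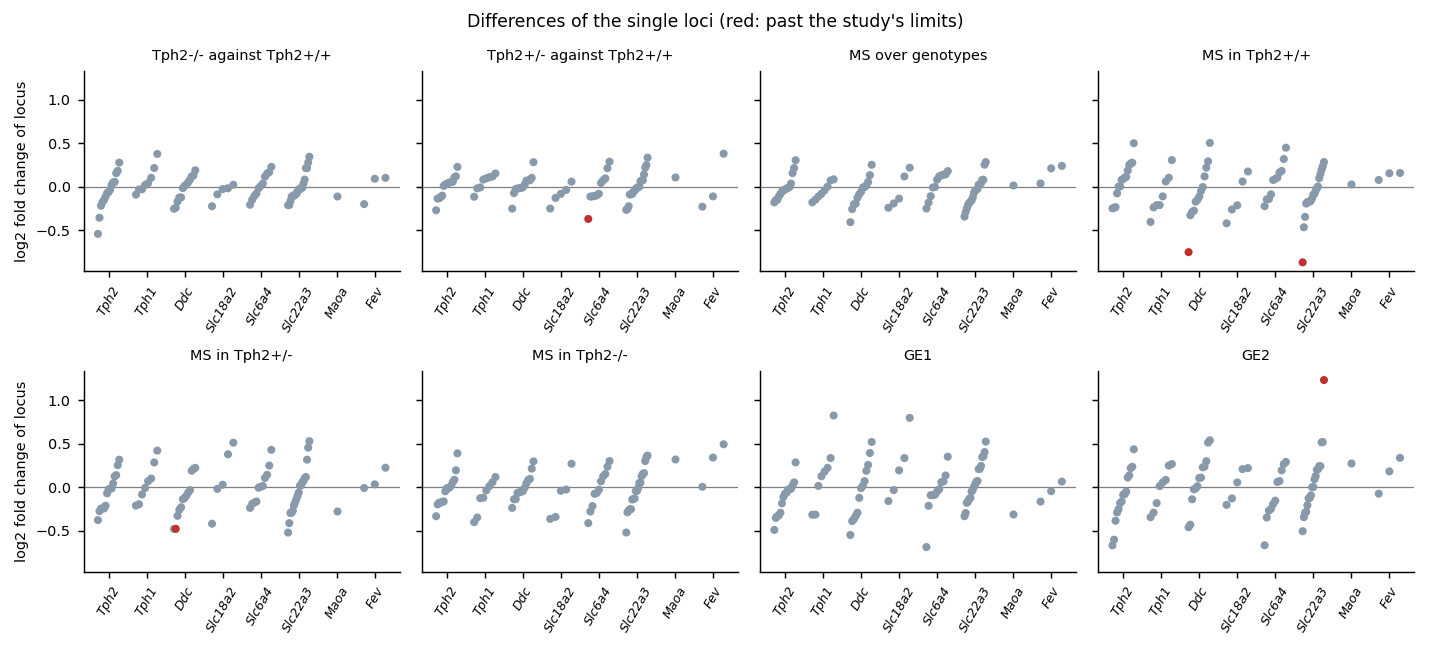
Log2 fold change of each of the 75 member loci (vertical axis), by gene, in the 8 comparisons, with loci past the limits of the study in red. The loci of the 6 genes with 5 or more loci spread to both sides of 0, and the 5 red points are single loci of Slc6a4, Ddc and Slc22a3, from -0.87 to 1.23.

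In Tph2+/- mice, 1 of 75 member loci passed the limits after MS, against 0.779% of all loci, and 0 of 8 gene sums, against 0.662% of genes. It was the neighbour of the locus just described, chr11:11836649-11838075 in intron 8 of Ddc, with 30 CpG in 1427 bp. Its CPM in Tph2+/- ran from 2.99 to 7.69 (median 4.79) in C and from 1.90 to 4.12 (3.78) in MS. The log2 fold change was -0.48 ± 0.18 (SE; edgeR, adjusted p = 1.0), and it missed the p limit without S18 to S26 (-0.40) and with a term for the late controls S42 to S48 (-0.43). The groups overlapped, and 1 MS library at 1.90 CPM stood below the other 7, which ran from 3.38 to 4.12. In the same libraries 10 of the 13 loci of Ddc were lower after MS by sign alone, with a sum at -0.13 ± 0.07 (adjusted p = 0.995). The low MS library, replicate 1, was also the lowest of its group in the Ddc sum, at 25.5 CPM against 32.3 to 38.04. At an unadjusted p under 0.05, 7 of 75 member loci (9.33%) differed, against 4.36% of all loci.

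In Tph2-/- mice, 0 of 75 member loci passed the limits after MS, against 1.48% of all loci, and 0 of 8 gene sums, against 2.16% of genes. At an unadjusted p under 0.05 it was 1 locus, against 7.11% of all loci. Fev had the smallest p of the sums, with 0.29 ± 0.12 (SE; edgeR, adjusted p = 0.429). The Tph2 sum differed by -0.05 ± 0.07 (adjusted p = 0.814) and the Ddc sum by -0.00 ± 0.08 (adjusted p = 0.996).

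The interactions ask whether the difference after MS differed between genotypes. GE1 sets Tph2+/- and GE2 sets Tph2-/- against Tph2+/+, so both share the Tph2+/+ libraries. In GE1, 0 of 75 member loci passed the limits, against 0.626% of all loci, and 0 of 8 gene sums, against 0.5% of genes. The smallest p belonged to the second upstream locus of Tph1, chr7:46675558-46676312, with means of 2.26 ± 0.565 and 1.70 ± 0.488 CPM in Tph2+/+ C and MS and of 1.79 ± 0.523 and 2.42 ± 0.720 in Tph2+/- C and MS (SD, n = 8 each). The means thus moved in opposite directions with overlapping groups, by 0.82 ± 0.32 on the log2 scale (SE; edgeR, adjusted p = 1.0), which missed the limits by its p.

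In GE2, 1 of 75 member loci passed the limits, against 0.558% of all loci, and 0 of 8 gene sums, against 0.511% of genes. It was again the locus in intron 5 of Slc22a3. Its CPM in Tph2-/- ran from 1.35 to 2.15 (median 1.75) in C and from 0.694 to 3.96 (2.33) in MS, so the MS libraries lay on both sides of the controls. The difference after MS was 0.36 ± 0.27 in Tph2-/- and -0.87 ± 0.25 in Tph2+/+, and the difference between these was 1.23 ± 0.37 (SE; edgeR, adjusted p = 1.0). Tph2+/+ C held the highest mean of the 6 groups at 2.92 CPM and Tph2+/+ MS the lowest at 1.57. Tph2+/- ran from 1.80 to 3.81 CPM (median 2.30) in C and from 0.681 to 2.70 (1.67) in MS, also lower in the mean after MS.

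**Figure D5:**
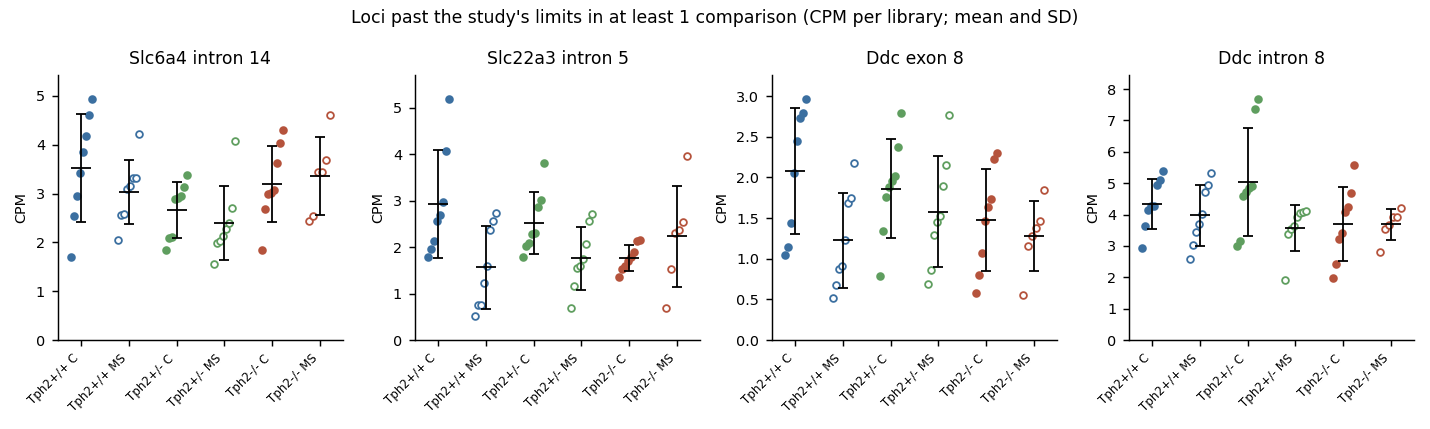
CPM of the 4 loci past the limits of the study in at least 1 comparison (vertical axis, from 0) in each of the 46 libraries by group, with filled points for C, open points for MS and bars for the mean and SD. The groups overlap at each locus, and at the Slc22a3 locus Tph2+/+ C stands highest in the mean (2.92 CPM) and Tph2+/+ MS lowest (1.57 CPM).

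After adjustment over all loci, 0 of 75 member loci had an adjusted p under 0.05 in any of the 8 comparisons by edgeR, and by DESeq2 the number was 0 as well. Of all loci, DESeq2 gave 31 in Tph2-/- against Tph2+/+, 6 in Tph2+/- against Tph2+/+ and 1226 in MS over genotypes, where edgeR gave 24. With the window widened to 10 kb, edgeR gave 1 member locus in Tph2-/- against Tph2+/+, the locus 2 bp past the limit downstream of Tph2. By edgeR, the share of all loci was 0.0139% for Tph2-/- against Tph2+/+, 0.00213% for Tph2+/- against Tph2+/+, 0.0128% for MS over genotypes and 0% in each of the other 5. At an unadjusted p under 0.05, 2, 2, 7, 3, 7, 1, 3 and 3 of the 75 loci differed in Tph2-/- against Tph2+/+, Tph2+/- against Tph2+/+, MS over genotypes, MS in Tph2+/+, MS in Tph2+/-, MS in Tph2-/-, GE1 and GE2, against 4.08%, 3.47%, 12.2%, 6.52%, 4.36%, 7.11%, 3.71% and 3.36% of all loci in the same order. The median log2 fold change over the member loci lay between -0.03 and 0.01 in these comparisons, and that over all loci between -0.01 and 0.01. The median SE of a member locus was 0.15 between genotypes and 0.21 for MS in Tph2+/+, against 0.05 for the sum of Tph2 between Tph2-/- and Tph2+/+. The litters of the mice are not known here, so p-values treat littermates as separate.

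Other genes of serotonin handling were read from a list of 31, of which 24 had at least 1 locus. The cofactor genes Gch1, Gchfr, Pts, Spr, Qdpr and Pcbd1, which make, regulate or recycle tetrahydrobiopterin for TPH2, were among them, and 0 of these passed the limits in any comparison. In all, 1 of the 24 gene sums was lower in Tph2+/- against Tph2+/+ (0.389% of all genes passed), 1 was higher in MS in Tph2+/+ (1.43%), 1 was higher in GE1 (0.5%) and 0 passed in the other 5 comparisons. The first was Gata2, a transcription factor of early serotonin neurons, with -0.28 ± 0.09 (SE; edgeR, adjusted p = 1.0). Insm1, a zinc-finger factor of neuroendocrine and neuronal precursors, gave 0.50 ± 0.18 (adjusted p = 0.629), and Slc3a2, the heavy chain of the carrier that brings in tryptophan, gave 1.04 ± 0.39 (adjusted p = 1.0). Slc29a4, a monoamine transporter of the plasma membrane, had the smallest p of the list in MS over genotypes with 0.19 ± 0.06 (adjusted p = 0.105), and missed the fold limit alone. Lmx1b, a factor that specifies serotonin neurons, gave 0.13 ± 0.04 in MS over genotypes (adjusted p = 0.121) and also missed the fold limit alone.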

How the data were processed

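Per the labels and the methods of the study, amygdala DNA was sheared, its methylated part was enriched on the methyl-binding domain (MBD) of a protein that recognizes methylated CpG, and it was sequenced as pairs of 50 bp reads with 20 Mreads planned per sample, and the authors mapped them with Bowtie2 2.1.0 to GRCm38, called peaks with MACS and counted reads in merged peaks with DiffBind 2.0.9. The deposited table holds these raw counts, 1 row per locus and 1 column per library, and all 48 columns matched a sample. How duplicate reads were treated is not given in the sources used here. Among the counts above 0 of a library, 55.0 to 76.0% were even numbers, so counts are not all independent fragments, and intervals from counts alone would be too narrow. Capture depends on CpG density and on copies of the sequence in the animal.

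All 187695 loci were fitted with edgeR 4.0.16 in R 4.3.3 (TMM scaling, trended dispersion, robust quasi-likelihood F-test, 1 term per group, Benjamini-Hochberg adjustment over all loci), and sums per gene over 37004 genes likewise. CPM use the TMM-scaled totals, which were 7.72 to 14.1 Mcounts before scaling. The study left out 2 low-count libraries of Tph2-/- MS that the labels do not name, and the 2 of that group with the lowest totals (replicates 3 and 7) were left out for them. The study used DESeq2, which is an alternative here (version 1.42.0), beside other scaling, filters, libraries, a block, a CpG offset and other gene windows. Genes, exons and introns came from the GENCODE annotation and promoters from RefSeq, both on GRCm38.p6. Scripts were tested on simulated data. For each gene the text names the locus nearest the start, the highest locus and loci past the limits, and per comparison the locus or listed gene with the smallest p. The members and lists were chosen with earlier results of these data known.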

Additional observations from a re-analysis of the deposited data

Results flagged for a closer look

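In 11 of the 174 combinations of a named locus or gene sum with a group, 1 library stood far from the others of its group by Dixon's criterion, where chance alone gives about 5% of such combinations. The Fev locus upstream of the gene, chr1:74888760-74889391, reached 5.09 CPM in Tph2-/- MS replicate 2 against 1.55 to 2.50 in the other libraries, and the Slc18a2 sum reached 20.6 CPM in Tph2-/- MS replicate 5 against 11.4 to 14.01. Low libraries were Tph2+/- MS replicate 1 for Ddc, at 25.5 CPM in the sum (others 32.3 to 38.04) and 1.90 in intron 8 (others 3.38 to 4.12), Tph2+/+ C replicate 7 for the Slc6a4 sum at 23.997 (others 28.8 to 31.5), Tph2-/- C replicate 6 for the Tph1 sum at 18.003 (others 23.7 to 27.3) and Tph2+/+ C replicate 4 for the upstream Slc18a2 locus at 0.574 (others 1.85 to 2.24). High libraries were Tph2+/- MS replicate 7 for the Slc22a3 sum at 59.8 (others 50.7 to 54.6), Tph2+/+ MS replicate 1 for the upstream Slc22a3 locus at 3.10 (others 0.756 to 1.74), and in Slc6a4 Tph2+/- MS replicate 2 for intron 14 at 4.08 (others 1.56 to 2.70) and Tph2+/- MS replicate 3 for intron 2 at 2.23 (others 1.51 to 1.82).

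The difference after MS at the locus in intron 5 of Slc22a3 differed between Tph2-/- and Tph2+/+ by 1.23 on the log2 scale in the test of the difference itself (edgeR, adjusted p = 1.0), past the unadjusted limits alone.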

How the results depend on the processing

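Of 264 counts of member loci or gene sums past a threshold over 11 alternatives, 23 moved by over 1.5 times, all between 0, 1 and 2. With the window widened to 10 kb, 1 locus passed both the limits and an adjusted p under 0.05 in Tph2-/- against Tph2+/+, and 2 passed the limits in Tph2+/- against Tph2+/+, 1 in MS in Tph2-/- and 2 in GE2. This window reads the same fit, so the shares over all loci given above apply. With all 48 libraries, 0 member loci passed in Tph2+/- against Tph2+/+ and 1 in MS in Tph2+/+, against 929 and 1870 of the 187695 loci. There 1 gene sum, Fev, passed in MS in Tph2-/-, as did 3066 of the 37004 sums (800 with 46 libraries). The CpG density offset gave 1 locus in MS in Tph2+/+ and 2 in MS in Tph2+/-, against 2739 and 1614 of all loci. It also gave 1 gene sum, Fev, in MS over genotypes and in MS in Tph2-/-, against 859 and 605 of all sums. When the 2 omitted Tph2-/- MS libraries were replicates 2 and 3, the fit gave 1 locus in MS over genotypes, 2 in MS in Tph2+/- and 2 in GE2. Of all loci, 4835, 1613 and 1126 passed in this order. Without S18 to S26, the member loci past the limits were 1 in MS over genotypes, 1 in MS in Tph2+/+, 1 in MS in Tph2-/- and 2 in GE2. Of all loci, 2374, 1833, 2221 and 1604 passed in this order. A mean count of at least 20 left 1 in MS in Tph2+/+, against 1833 of the 140008 loci kept. The Ddc exon 8 locus, with a mean count of 17.5, was not among those kept. DESeq2 gave 1 in GE1, against 1471 of all loci. The cause of the other moves was not tested. The replicate block gave 0 in Tph2+/- against Tph2+/+ and 1 in GE1, against 1067 and 1183 of all loci. It moved no other count by over 1.5 times. Same-numbered libraries of different groups had a median correlation of 0.01 over 110 pairs, and other pairs had -0.001 over 770. A correlation over 0.1 was reached by 14 of the former and 77 of the latter. A median over all pairs cannot show whether some libraries shared a litter or a batch.

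The Slc22a3 locus kept the limits in 9 of 9 alternatives, from -0.91 to -0.83 in MS in Tph2+/+ and from 1.14 to 1.57 in GE2. The Ddc exon 8 locus, which the filter on mean count left out, kept them in 5 of 8 (-0.79 to -0.63). The Ddc intron 8 locus kept them in 7 of 9 (-0.49 to -0.40) and the Slc6a4 locus in 7 of 9 (-0.50 to -0.36). The Fev sum in MS over genotypes ran from 0.13 to 0.21, with p from 0.00429 to 0.110.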

Other observations

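The locus with the smallest p in MS in Tph2-/- was chr11:77008457-77009855 in Slc6a4. It lay in intron 2 of the transcript used here and over an untranslated exon of another transcript of the gene. It also overlaps the noncoding gene Gm12343. Its CPM was 3.88 ± 1.003 (SD, n = 8) in Tph2-/- C and 2.93 ± 0.725 (n = 6) in Tph2-/- MS, with a log2 fold change of -0.41 ± 0.19 (SE; edgeR, adjusted p = 0.688). In Tph2+/+ it was 3.82 ± 0.681 and 3.44 ± 0.779 and in Tph2+/- 3.60 ± 0.838 and 3.15 ± 0.596 (n = 8 each), so the mean was lower after MS in each genotype, with overlapping groups. Over genotypes the difference was -0.25 ± 0.10 (adjusted p = 0.304), past the fold limit and short of the p limit.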
